A study of Mus musculus with 6 samples.

Results

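Amino acid transporters of 7 solute carrier families were compared between mouse spermatogonial stem cells (SSC, labelled strain C57BL/6) and mouse embryonic stem cells (ESC, labelled strain R1/E), with 3 samples in each group. The strain label changes with the group, so strain and cell type cannot be told apart in any difference below. The members were every probe whose annotated symbol begins with Slc1a, Slc3a, Slc6a, Slc7a, Slc36a, Slc38a or Slc43a and a number. There were 57 such genes with 118 probes, of 19057 genes and 45281 probes on the array. The same pattern also caught Slc7a6os, a gene on the strand opposite Slc7a6 that encodes no transporter, and it is given apart. RNA of each sample was measured on 1 Illumina bead array in 1 colour. The labels give no treatment, age, culture condition or isolation step for either group, and they leave unsaid whether the replicates came from different cultures or animals. The p-values therefore describe the spread between these arrays, part or all of which may be technical.

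Cells take up amino acids through carriers that differ in their substrates and in the ion gradient that drives them. SLC7 proteins carry cationic or large neutral amino acids, and many of them reach the membrane only when bound to the heavy chain Slc3a2. SLC38 proteins are sodium-coupled carriers of glutamine and other small neutral amino acids, SLC1 proteins carry glutamate or small neutral amino acids, SLC6 proteins use sodium and chloride, SLC36 proteins are driven by protons and SLC43 proteins carry large neutral amino acids. Mouse embryonic stem cells are known for a heavy demand for particular amino acids, among them threonine and glutamine.

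Of the 57 genes, 26 were measured, meaning that at least 1 probe had a detection p under 0.01 on at least 3 of the 6 arrays. Values below are log2 intensities after background correction and quantile normalization, differences are SSC minus ESC, and a gene was called at a limma adjusted p under 0.05. In SSC, 8 of the 26 measured transporters were higher, 15 were lower and 3 were not called, against 37.9% higher, 36.5% lower and 74.4% called over the 10024 genes tested. A call with a difference of at least 2-fold was made for 18 of the 26, against 33.2% of all genes. Of these 18, 5 were higher and 13 lower in SSC, against 17.5% higher and 15.8% lower of all genes. Under scaling on array medians the split was 7 higher and 10 lower. That scaling moved the median difference of all genes to 0.19 and made 63.6% of all genes past 2-fold higher in SSC, against 52.6% in the main analysis. The values of the groups did not overlap for 23 of the 26, against 76.9% of all genes. The median difference was −0.94 over the 26 and 0.0036 over all genes. These counts cannot be read as support for a difference, because 7 of the 26 were detected on every array of 1 group and on no array of the other and had to differ to be measured at all. The same limit holds for the adjusted p-values given below for these 7: Slc1a1, Slc38a4, Slc38a8, Slc6a7, Slc6a15, Slc7a7 and Slc7a8. Among the 15 transporters detected on all 6 arrays, 7 were higher and 8 lower in SSC, against 2558 higher and 2933 lower of the 7685 genes detected on all arrays. At least 2-fold differences were called for 11 of the 15 (73.3%), against 28.04% of those genes.

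**Figure D1:**
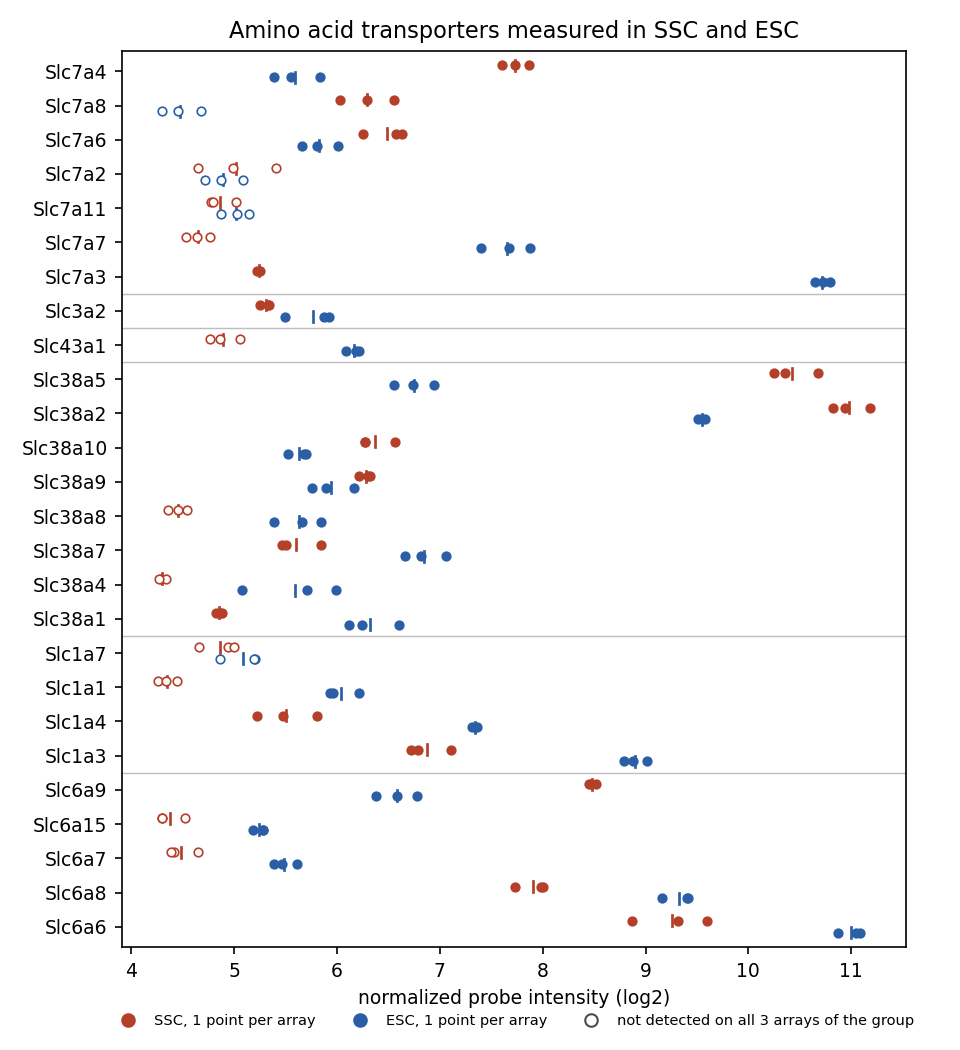
Normalized probe intensity (log2, horizontal axis) of the 26 measured transporters, 1 point per array, SSC in red above ESC in blue, with a tick at each group's mean and lines between the carrier families. Slc7a3 and Slc38a5 show the widest gaps, in opposite directions, and open points mark groups in which the probe was not detected on all 3 arrays.

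The arrays of a group were close to each other and far from those of the other group. Over the 17435 kept probes, arrays correlated at 0.989 to 0.993 within a group and at 0.784 to 0.795 between groups, and 16505 to 17211 probes were detected on SSC arrays and 15242 to 15613 on ESC arrays. Of the transporter probes, 21 to 27 were detected on SSC arrays and 30 to 36 on ESC arrays. The labels were checked against cell markers. All 12 pluripotent stem cell markers were lower in SSC, and Nanog and Esrrb were detected on 0 SSC arrays. Of 16 spermatogonial markers, 13 were higher in SSC, 1 was lower and 2 were not called. Most markers of Sertoli cells and of fibroblasts and peritubular myoid cells were also higher on the SSC arrays. Of 11 measured Sertoli cell markers, 8 were higher and 2 lower in SSC, with a summed level of 13.52 to 13.83 in SSC and 10.60 to 10.83 in ESC, and Amh, Fshr and Sox9 were detected on 0 ESC arrays. This sum rests largely on Defb19 in SSC (13.02, 12.96 and 13.42) and on Rhox5 in ESC (10.54, 10.49 and 10.27). Rhox5 was lower in SSC. Of 13 measured fibroblast and peritubular myoid markers, 10 were higher and 2 lower in SSC, with a summed level of 13.20 to 13.36 in SSC and 12.08 to 12.15 in ESC, and Dcn and Col6a1 were detected on 0 ESC arrays. In ESC this sum rests largely on Acta2 (11.46, 11.55 and 11.47), whose brightest probe was not called. The other kept Acta2 probes were called higher in SSC, by 1.36, 1.28 and 1.32. Leydig cell markers were higher in SSC for 3 of 4 measured and macrophage markers for 3 of 4. Of 7 measured endothelial markers, 2 were higher and 4 lower. Star, Hsd3b1, Hsd3b6 and Nr5a1 of 8 Leydig cell markers were not measured. Neither were Ptprc, Adgre1, C1qa, C1qb and Cd14 of 9 macrophage markers. Markers above background in 1 group alone had to differ to be measured. In SSC these were 2 Leydig cell, 3 macrophage, 2 endothelial, 6 Sertoli cell, 6 fibroblast and myoid and 2 spermatogonial markers. In ESC they were 1 endothelial, 1 fibroblast and myoid and 3 pluripotency markers. Over all genes, 37.9% were higher and 36.5% lower. The 3 macrophage markers that were higher averaged 4.95 to 5.45 in SSC, near the detection floor. The part of these cells in the transporter values was not tested, and in such bulk samples fewer cells of a type and less RNA per cell cannot be told apart.

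The cationic amino acid carriers of the SLC7 family held the widest difference toward ESC. Slc7a3 encodes CAT3, a carrier of arginine, lysine and ornithine. Its normalized level was 5.25, 5.24 and 5.22 in SSC, against 10.79, 10.72 and 10.65 in ESC, so the SSC arrays lay far below every ESC array. The difference was −5.48 ± 0.11 (SE, n = 3 per group, limma adjusted p = 5.59e-13). The unnormalized intensity of this probe averaged 128.2 in SSC and 1836 in ESC, on arrays whose median probe lay between 106.1 and 108.7, so the SSC level was close to the background that the correction removes. Without background correction the difference was −3.83. A further Slc7a3 probe was detected on no array.

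Slc7a4 and Slc7a2 are relatives of Slc7a3 by sequence, and Slc7a2 encodes the cationic carrier CAT2. Slc7a4, for which transport activity is not established, went the other way, with 7.73, 7.87 and 7.60 in SSC and 5.38, 5.55 and 5.84 in ESC. Every SSC value lay above every ESC value, and the difference was 2.14 ± 0.14 (SE, adjusted p = 1.94e-08), or 1.15 without background correction. A further Slc7a4 probe was detected on no array. Slc7a2 averaged 5.01 ± 0.38 in SSC and 4.89 ± 0.19 in ESC (SD, n = 3 each), with overlapping groups and no call (adjusted p = 0.537). Its kept probe was detected on 2 of 3 SSC arrays and 1 of 3 ESC arrays. Of its probes that were not kept, 1 was detected on 1 SSC array and lay higher in SSC by 0.39 without overlap. The rest were detected on no array. Both probes of Slc7a1, which encodes the cationic carrier CAT1, were not well above background on any array.

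The light chains that pair with Slc3a2 also divided. Slc7a7 encodes y+LAT1 and Slc7a6 encodes y+LAT2, which both exchange cationic for neutral amino acids, and loss of the human SLC7A7 causes lysinuric protein intolerance. Slc7a7 stood at 4.63, 4.53 and 4.77 in SSC, not detected on any of these arrays, against 7.40, 7.67 and 7.88 in ESC. It was at least 7.20-fold lower in SSC (adjusted p = 7.4e-10), and its further kept probe, with detection on a single SSC array, was lower by at least 5.52-fold. Such a bound sets the mean of the bright group against the detection floor of the dim group and holds only under this background correction; without one the fitted difference of Slc7a7 was −1.37.

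Slc7a6 was higher in SSC, with 6.25, 6.57 and 6.63 in SSC and 6.01, 5.81 and 5.66 in ESC. The groups did not overlap, and the difference was 0.66 ± 0.14 (SE, adjusted p = 8.61e-04), or 0.30 without background correction and 1.01 under scaling on array medians. On the opposite strand, Slc7a6os was lower in SSC by both of its kept probes, at differences of −0.37 (adjusted p = 0.013) and −0.45 (adjusted p = 0.034). Its first probe was not called under scaling on array medians (−0.048).

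Slc7a8, the light chain LAT2 for large and small neutral amino acids, was the 1 transporter detected on all 3 SSC arrays and on no ESC array. Its values were 6.03, 6.29 and 6.55 in SSC and 4.45, 4.29 and 4.68 in ESC, which made it at least 2.44-fold higher in SSC (adjusted p = 2.21e-07), with a fitted difference of 0.63 without background correction. A further Slc7a8 probe was detected on no array. Slc7a11, the light chain xCT, exchanges glutamate for cystine and so feeds glutathione synthesis. It averaged 4.86 ± 0.14 in SSC and 5.01 ± 0.14 in ESC (SD, n = 3 each), was detected on 1 SSC array and 2 ESC arrays and was not called (adjusted p = 0.289). Its difference of −0.15 turned to 0.055 under scaling on array medians.

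The shared heavy chain Slc3a2 had 5.33, 5.25 and 5.33 in SSC and 5.92, 5.87 and 5.49 in ESC. The SSC values lay below the ESC values by a narrow margin at ESC replicate 3, and the difference was −0.46 ± 0.13 (SE, adjusted p = 0.0077). It was −0.16 without background correction, and under scaling on array medians it was no longer called (−0.15). In the SLC43 family, Slc43a1, the large neutral carrier LAT3, had 4.86, 5.05 and 4.76 in SSC and 6.21, 6.09 and 6.19 in ESC. Detection reached 2 of the 3 SSC arrays, and the gene was lower in SSC by at least 2.37-fold (adjusted p = 8.03e-07), with a further probe, undetected in SSC, at least 1.37-fold lower. Without background correction its fitted difference was −0.44.

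**Figure D2:**
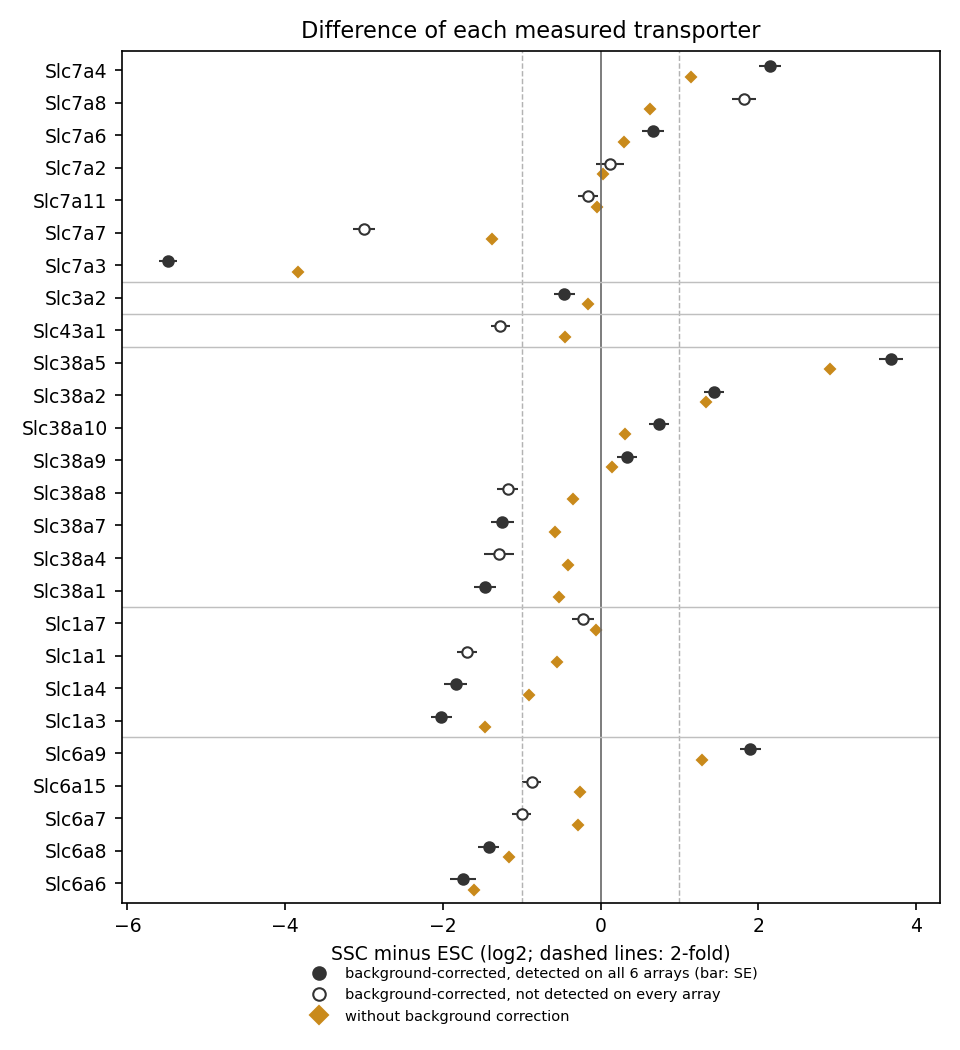
SSC minus ESC difference (log2, horizontal axis) of each measured transporter, with the background-corrected value as a circle (bar, SE; filled where detected on all 6 arrays) and the value without background correction as a diamond. Slc7a3 lies at −5.48 and Slc38a5 at 3.68, and for 18 of the 26 the diamond lies more than 1.5 times nearer to 0 with an unchanged call.

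The amino acid response acts when amino acids run short, through the kinase Gcn2 and the transcription factor Atf4, which binds C/EBP-ATF composite elements in target genes. RefSeq promoter windows (GRCm38.p6) reaching from 250 bases before to 50 after the start were matched by symbol for 41 of the 57 members, among them 18 of the 26 measured ones. The letters TTGCATCA, on either strand, occurred in 6.45% of the 62 windows of members and in 0.895% of the 32851 windows of all genes. They were found in 4 windows of 3 of the 41 genes, Slc7a7, Slc1a4 and Slc7a11, at 4 distinct sites. Slc7a7 has 2 overlapping windows that hold the same site, so the share by window counts it in both. For each of these genes 1 window with the match is shown, with the matched letters in capitals, 5′ to 3′ on the gene's strand. Slc7a7 and Slc1a4 were lower in SSC and Slc7a11 was not called. A match is no evidence of binding.
Slc7a7, chr14:54417895-54418194, minus strand: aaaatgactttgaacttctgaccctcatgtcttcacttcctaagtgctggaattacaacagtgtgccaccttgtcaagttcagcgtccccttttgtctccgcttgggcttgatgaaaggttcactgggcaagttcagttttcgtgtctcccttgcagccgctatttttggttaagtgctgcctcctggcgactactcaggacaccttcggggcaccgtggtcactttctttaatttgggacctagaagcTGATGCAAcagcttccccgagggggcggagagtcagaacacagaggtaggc
Slc1a4, chr11:20332664-20332963, minus strand: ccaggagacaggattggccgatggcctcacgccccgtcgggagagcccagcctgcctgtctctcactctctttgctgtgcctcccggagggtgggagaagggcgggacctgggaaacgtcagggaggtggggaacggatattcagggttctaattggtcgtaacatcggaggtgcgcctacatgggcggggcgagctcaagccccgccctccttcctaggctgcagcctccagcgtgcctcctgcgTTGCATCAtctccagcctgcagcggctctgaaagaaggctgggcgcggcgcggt
Slc7a11, chr3:50443564-50443863, minus strand: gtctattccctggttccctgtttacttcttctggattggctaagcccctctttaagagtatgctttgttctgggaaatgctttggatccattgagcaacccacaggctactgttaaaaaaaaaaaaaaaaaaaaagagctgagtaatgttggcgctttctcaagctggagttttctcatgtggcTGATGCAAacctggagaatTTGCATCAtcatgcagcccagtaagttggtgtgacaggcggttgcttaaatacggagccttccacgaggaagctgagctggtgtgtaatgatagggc

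In these windows the match lies at bases −1 to 7 of Slc7a7, at −4 to 4 of Slc1a4, and at −66 to −59 and −47 to −40 of Slc7a11, counted from the start with no base 0. The other sequences searched, on both strands, were the octamer ATGCAAAT, the E-box CACGTG and the GC box GGGCGG. The octamer occurred in 3.23% of the windows of members and 1.74% of all windows. Its 1 match among measured members overlaps the second element of Slc7a11. The E-box occurred in 12.9% of the windows of members and 7.15% of all windows, and the GC box in 53.2% of the windows of members and 35.7% of all windows.

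The SLC38 family of sodium-coupled neutral carriers had 4 of its 8 measured members higher and 4 lower in SSC. The shares over all genes were 37.9% higher and 36.5% lower. Of the 4 lower members, Slc38a4 and Slc38a8 were detected in ESC alone and had to be lower to be measured. Slc38a5 encodes SNAT5, a carrier of glutamine, asparagine, histidine, serine and glycine, and showed the widest difference toward SSC among the transporters. Its level was 10.35, 10.25 and 10.68 in SSC, against 6.94, 6.74 and 6.55 in ESC, with no overlap. The difference was 3.68 ± 0.15 (SE, adjusted p = 1.64e-10), and it was 2.92 without background correction. The unnormalized intensity averaged 1458 in SSC and 180.3 in ESC. Its promoter window (RefSeq, GRCm38.p6) is shown as that of this transporter, with 1 E-box and 2 GC boxes in capitals.
Slc38a5, chrX:8271131-8271430, plus strand: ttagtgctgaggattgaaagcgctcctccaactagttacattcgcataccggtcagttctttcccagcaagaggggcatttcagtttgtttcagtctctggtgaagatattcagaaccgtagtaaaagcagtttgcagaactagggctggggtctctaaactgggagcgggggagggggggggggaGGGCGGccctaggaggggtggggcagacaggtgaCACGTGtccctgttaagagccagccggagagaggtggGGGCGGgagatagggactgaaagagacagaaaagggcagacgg

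Slc38a2 encodes SNAT2, the carrier of small neutral amino acids whose gene is known to be induced by amino acid shortage. Its brightest probe gave 11.18, 10.94 and 10.83 in SSC and 9.51, 9.58 and 9.54 in ESC, a difference of 1.44 ± 0.13 (SE, adjusted p = 3.2e-07). The other 2 kept probes, annotated to the same transcript, differed by 0.27 and −0.12 and were not called. With the mean of the 3 probes the gene was higher by 0.53, so the size of this difference rests on the probe chosen. Slc38a10, an intracellular member, had 6.27, 6.57 and 6.27 in SSC and 5.52, 5.68 and 5.70 in ESC. It was higher by 0.74 ± 0.13 (SE, adjusted p = 1.62e-04) and by 0.57 on its further probe, or by 0.31 without background correction.

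Slc38a9 is the lysosomal carrier that reports arginine to the kinase complex mTORC1. It had 6.22, 6.32 and 6.30 in SSC and 5.76, 6.17 and 5.90 in ESC. The difference of 0.34 ± 0.13 (SE) was small and near the threshold (adjusted p = 0.0323). Scaling on array medians gave 0.68. The call was lost in 7 of 15 alternatives, among them no background correction (0.15) and each of SSC replicates 2 and 3 and ESC replicates 1 and 3 left out.

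The other SLC38 members were lower in SSC. Slc38a1, the glutamine carrier SNAT1, had 4.88, 4.82 and 4.86 in SSC and 6.24, 6.11 and 6.61 in ESC. Its difference was −1.47 ± 0.14 (SE, adjusted p = 6.53e-07), its further probe was at least 1.46-fold lower, and the value was −0.53 without background correction. Slc38a7, the lysosomal glutamine exporter SNAT7, stood at 5.50, 5.84 and 5.46 in SSC and 6.66, 7.06 and 6.81 in ESC, a difference of −1.25 ± 0.14 (SE, adjusted p = 4.82e-06), or −0.58 without background correction. For both genes the SSC values lay below every ESC value.

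Slc38a4 and Slc38a8 reached detection on all ESC arrays but no SSC array. Slc38a4 encodes SNAT4 and is expressed from the paternal allele in several mouse tissues. It was at least 1.73-fold lower in SSC (adjusted p = 3.91e-05). Its ESC values of 5.99, 5.71 and 5.07 were spread widely, while the SSC values lay between 4.27 and 4.34. Slc38a8 had 4.54, 4.45 and 4.36 in SSC and 5.84, 5.39 and 5.66 in ESC, and was at least 1.78-fold lower (adjusted p = 4.5e-06). Their fitted differences without background correction were −0.41 for Slc38a4 and −0.35 for Slc38a8.

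**Figure D3:**
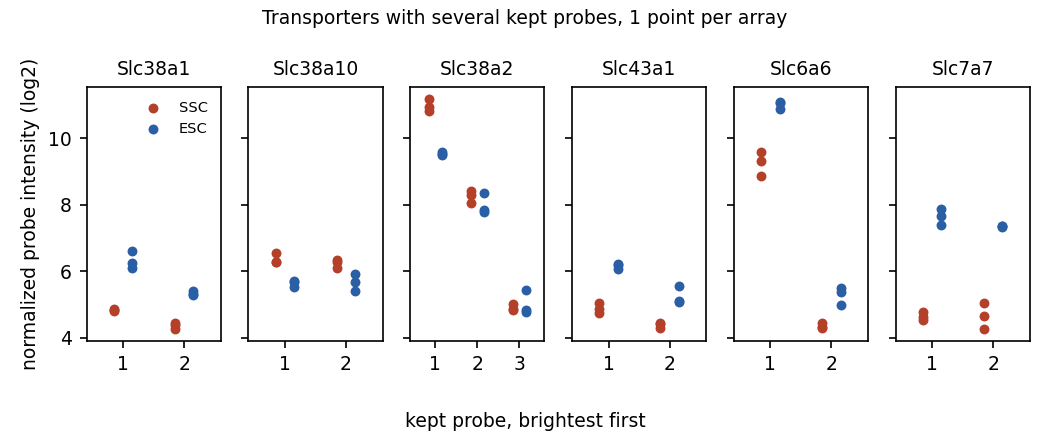
Normalized intensity (log2, vertical axis) on each array for the 6 transporters with more than 1 kept probe, SSC in red left of ESC in blue, with the probes ordered from the brightest. Slc38a2 separates the groups on its brightest probe alone, and for the other 5 transporters every kept probe separates them the same way.

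Of 7 SLC1 genes 4 were measured, and the 3 that were called were lower in SSC, against 36.5% of all genes. Slc1a1, 1 of these 3, was detected in ESC alone and had to be lower to be measured. Slc1a3 encodes the glutamate transporter EAAT1, also called GLAST. It had 7.11, 6.79 and 6.72 in SSC and 9.01, 8.88 and 8.79 in ESC, a difference of −2.02 ± 0.13 (SE, adjusted p = 2.25e-08). Slc1a4, whose promoter window is printed above, encodes ASCT1, an exchanger of alanine, serine, cysteine and threonine. It had 5.47, 5.80 and 5.22 in SSC and 7.34, 7.36 and 7.31 in ESC. The difference was −1.84 ± 0.14 (SE, adjusted p = 1.22e-07), or −0.91 without background correction.

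Slc1a1, the glutamate and cysteine carrier EAAT3, was detected on all ESC arrays (6.21, 5.93 and 5.96) and on no SSC array (4.44, 4.26 and 4.34). It was at least 2.35-fold lower in SSC (adjusted p = 6.47e-08), with a fitted difference of −0.56 without background correction. Slc1a7, known from the retina, was detected on 2 arrays of each group, and averaged 4.86 ± 0.18 in SSC and 5.08 ± 0.19 in ESC (SD, n = 3 each). The groups overlapped, and the difference of −0.22 ± 0.14 (SE) was not called (adjusted p = 0.168), although it was called without ESC replicate 1 (−0.34). Slc1a5, which encodes the glutamine exchanger ASCT2, was not measured. The brightest of its 5 probes reached detection on 2 ESC arrays and no SSC array. Slc1a6, also not measured, was detected the other way, on 2 SSC arrays and no ESC array.

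The SLC6 family had 5 measured members of 19, of which 4 were lower and 1 was higher in SSC. Over all genes, 36.5% were lower and 37.9% higher. Slc6a7 and Slc6a15, among the 4 lower members, were detected in ESC alone and had to be lower to be measured. Slc6a6 encodes the taurine transporter. It had 9.59, 9.32 and 8.87 in SSC and 11.09, 11.05 and 10.87 in ESC, a difference of −1.74 ± 0.17 (SE, adjusted p = 7.67e-07). SSC replicate 3 was the lowest of its group, and all SSC values lay below the ESC values. A further probe, undetected in SSC, was at least 1.40-fold lower. Slc6a8, the creatine transporter, had 7.99, 7.998 and 7.73 in SSC and 9.41, 9.41 and 9.16 in ESC, a difference of −1.42 ± 0.13 (SE, adjusted p = 4.92e-07).

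Slc6a9 was the SLC6 member that was higher in SSC. It encodes the glycine transporter GlyT1, which mouse oocytes and early embryos also use to regulate their volume. It had 8.52, 8.45 and 8.47 in SSC and 6.78, 6.38 and 6.58 in ESC. The groups lay well apart, by 1.90 ± 0.13 (SE, adjusted p = 2.73e-08), or 1.28 without background correction, and its further probe was not measured.

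Slc6a15, a carrier of branched-chain amino acids and proline, and Slc6a7, the brain proline transporter, reached detection on all ESC arrays but no SSC array. Slc6a15 had 4.29, 4.53 and 4.30 in SSC and 5.18, 5.27 and 5.28 in ESC, and Slc6a7 had 4.65, 4.42 and 4.38 in SSC and 5.39, 5.61 and 5.46 in ESC. Slc6a15 was at least 1.36-fold lower in SSC (adjusted p = 2.21e-05) and Slc6a7 at least 1.61-fold lower (adjusted p = 9.32e-06). Their fitted differences without background correction were −0.26 for Slc6a15 and −0.29 for Slc6a7. Both lay near the detection floor in ESC, at 5.24 ± 0.06 for Slc6a15 and 5.49 ± 0.11 for Slc6a7 (SD, n = 3 each). Of the 5 probes of Slc6a15, 1 was kept.

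The other 31 transporter genes had no probe that passed the detection rule, and 26 of these were detected on no array. They were Slc1a2, Slc36a2, Slc38a3, Slc38a11, Slc43a2, Slc43a3, Slc6a2, Slc6a3, Slc6a5, Slc6a11, Slc6a12, Slc6a13, Slc6a14, Slc6a17, Slc6a18, Slc6a19, Slc6a20a, Slc6a20b, Slc6a21, Slc7a1, Slc7a9, Slc7a10, Slc7a12, Slc7a13, Slc7a14 and Slc7a15. The list holds most carriers of the monoamines, GABA and glycine at nerve endings and of the kidney and gut brush border. The other 5 were detected on 1 or 2 arrays: Slc1a5 and Slc36a3 in ESC, and Slc1a6, Slc36a1 and Slc6a4 in SSC. All 3 genes of the proton-coupled SLC36 family were among the 31. A probe that is not well above background sets no lower limit on the RNA.

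Genes around amino acid uptake were compared from 5 hand-chosen lists, read against the 37.9% higher and 36.5% lower of all genes. Genes detected on every array of 1 group and on no array of the other had to differ to be measured. They were Cth in the amino acid response, Pdzk1 and Cd44 among the partners, Txnrd1 in the glutathione list and 3 other carriers. In the amino acid response, 29 of 33 genes with a probe were measured, with a median difference of −0.82. In SSC 21 were lower (12 past 2-fold) and 5 higher, and 3 had no call. Chac1, which breaks down glutathione and is a target of Atf4, was lower by a difference of −4.34 ± 0.14 (SE, adjusted p = 2.23e-11), with 5.14, 5.19 and 5.61 in SSC and 9.70, 9.60 and 9.66 in ESC. Nupr1, a stress-induced nuclear protein seen above background on 2 SSC arrays, was lower by at least 14.1-fold, and the pseudokinase Trib3 was lower by −3.02 ± 0.13 (SE, adjusted p = 4.28e-10). Without background correction the differences were −2.82 for Chac1 and −2.28 for Nupr1.

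The genes of the amino acid response that were higher in SSC were led by Atf3 (1.58 ± 0.29, or 0.79 without background correction), Cebpg (0.53 ± 0.12) and Ppp1r15a (0.49 ± 0.14; SE, n = 3 per group). All 3 encode stress-response regulators. Atf4 itself, added after its values were seen, gave no settled direction. Its brightest probe averaged 10.95 in SSC and 11.05 in ESC and was not called (adjusted p = 0.56), its further probe was higher by 2.04, and the mean of both was higher by 0.97.

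Lysosomal sensing of amino acids and mTORC1 gave a mixed picture. Of 37 genes 32 were measured, with a median difference of −0.19, and in SSC 9 were higher and 13 lower while 10 had no call. Castor1, the arginine sensor of the mTORC1 pathway, had 7.50, 7.17 and 6.95 in SSC and 9.82, 9.80 and 9.51 in ESC, a difference of −2.50 ± 0.15 (SE, adjusted p = 9.82e-09). Eif4ebp1, the translation repressor that mTORC1 phosphorylates, was lower by −1.73, and the GATOR2 subunit Seh1l by −1.46, with 1 of its 4 kept probes, detected on 3 of the 6 arrays, not called. Rragd, a Rag GTPase that recruits mTORC1 to the lysosome, was higher by 1.59 ± 0.15 (SE, adjusted p = 8.18e-07), or 0.85 without background correction. Depdc5 (0.82, or 0.50 without background correction) and Lamtor4 (0.73) were higher too.

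**Figure D4:**
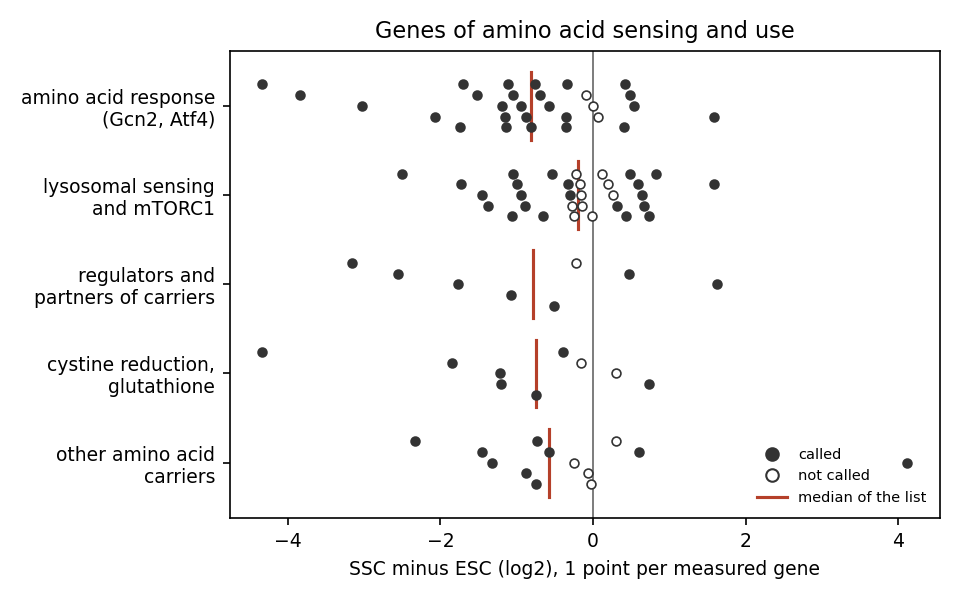
SSC minus ESC difference (log2, horizontal axis) of each measured gene in 5 lists around amino acid uptake, filled where called, with the list's median as a red line. The amino acid response has 21 of 29 genes called lower, while lysosomal sensing and mTORC1 lies on both sides of 0.

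Among regulators and partners of surface carriers, 8 of 10 genes were measured, and their median difference was −0.79. In SSC 2 were higher and 5 lower, and 1 had no call. The kinase Sgk1, which raises the surface level of several sodium-coupled carriers, was at 8.76, 8.76 and 8.76 in SSC and 12.07, 11.85 and 11.83 in ESC, a difference of −3.16 ± 0.12 (SE, adjusted p = 8.85e-11). Its target Nedd4l, a ubiquitin ligase that removes carriers from the membrane, was lower by −1.78 ± 0.12, and the scaffold protein Pdzk1, undetected in SSC, was lower by at least 4.85-fold (−1.04 without background correction). The syntaxin Stx1a was higher by 1.62 ± 0.12, and Cd44, undetected in ESC, was at least 1.26-fold higher, a call that was lost without background correction (0.14).

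In cystine reduction and glutathione synthesis, 9 of 13 genes were measured, and their median difference was −0.75. In SSC 1 was higher and 6 lower, and 2 had no call. Chac1, which breaks down glutathione, is also on this list, so the count covers more than synthesis. Of the genes whose products make glutathione, Gss was lower by −1.21 on its brightest probe. Gclm was not called (−0.16, adjusted p = 0.239), and Gclc was not measured. Gpx4, which reduces lipid peroxides with glutathione, was lower by −1.85 ± 0.12 (SE, adjusted p = 2.29e-08), with a further probe at −2.48. The last probe, detected on 2 of the 3 SSC arrays, was lower by at least 2.63-fold. The quinone reductase Nqo1, with detection on 1 SSC array, was lower by at least 2.07-fold (fitted difference without background correction, −0.40), and Keap1, the inhibitor of the antioxidant factor Nfe2l2, was higher by 0.73 on its brightest of 4 probes.

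Of 21 amino acid carriers outside the 7 families, 13 were measured, and their median difference was −0.57. In SSC 2 were higher and 7 lower, and 4 had no call. With detection required on all 6 arrays these were 0 and 3. Slc25a18, a mitochondrial glutamate carrier, had 8.81, 8.80 and 9.03 in SSC and was at least 14.6-fold higher there, with detection on 1 of 3 ESC arrays. The mitochondrial ornithine carrier Slc25a15 was lower by −2.34 ± 0.14, with its further probe at −0.52 and the mean of both at −1.43. The mitochondrial aspartate-glutamate carriers were lower as well: Slc25a12 by −1.46, and Slc25a13, undetected in SSC, by at least 1.93-fold. Slc16a10, the aromatic amino acid carrier TAT1, was at least 1.49-fold higher and was detected on 2 of 3 ESC arrays. Without background correction the fitted differences were −1.28 for Slc25a15, −0.61 for Slc25a12, −0.40 for Slc25a13, 2.30 for Slc25a18 and 0.20 for Slc16a10.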

How the data were processed

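The authors deposited unnormalized probe intensity on a linear scale, and a detection p-value beside each intensity, per the file headers. A further deposited table holds the authors' processed intensity values, whose column medians lie between 107.091 and 107.141, with the steps behind them not given in the sources used here. Per the submitters' processing notes GenomeStudio was used, with no version stated.

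Background was corrected by normexp from the detection p-values with an offset of 16, arrays were quantile normalized and values log2 transformed (limma 3.58.1, R 4.3.3). The 17435 probes with a detection p under 0.01 on at least 3 arrays entered 1 lmFit and eBayes model of group alone, with Benjamini-Hochberg adjustment over all of them. The brightest kept probe on average stands for a gene. A fold given as "at least" sets the bright group's mean against, per array of the dim group, the lowest detected probe or the dim probe itself, whichever was brighter. A list's summed level is the log2 of its measured genes' summed intensities. Probes were named through the platform annotation (34885 with 1 symbol, 18 with several, 10378 unnamed here), and all 57 members matched RefSeq by gene identifier.

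Members and lists were chosen with earlier results of these data known. All measured members are named. From the lists around amino acid uptake, up to 3 called genes of largest size per direction are named, with Gss, Gclm and Atf4 in addition. The cell markers named were not picked by this rule. The arrays' number limits the precision. Same-numbered samples did not deviate together (correlations of −0.14, −0.068 and 0.030), so the numbers were not taken as pairs.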

Additional observations from a re-analysis of the deposited data

How the results depend on the processing

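Of 15 alternatives, 15 transporters could be measured in all, 3 in 14 and 8 in 11. Where measured, directions held except that Slc7a11, not called, turned to 0.055 under scaling on array medians. Among these values calls were lost for Slc38a9 and Slc3a2 and gained for Slc1a7. The size of the differences depended on the background correction. Without one 9 transporters were called at 2-fold or more and the median difference was −0.274, and from the authors' processed table these were 9 and −0.274; the share of all genes past that size was 15.5% in both. With detection on all 6 arrays, which leaves 15 transporters, 8 were lower, 11 differed by at least 2-fold and the median was −0.458. The median was −0.458 at a detection limit of 0.05 and −0.0743 with no filter, which add genes near background. Scaling on array medians moved the median of all genes to 0.19. Leaving out 1 sample gave 6 to 8 higher, 10 to 15 lower, 14 to 17 at least 2-fold apart and a median of −1.195 to −0.235. The counts of 10 and 14 come from leaving out an ESC sample, when a transporter detected in ESC alone cannot reach 3 arrays. With the replicate number as a block the counts were 8 higher, 15 lower and 18 at least 2-fold apart, and no transporter changed its call. For Atf4 the mean of both probes gave 0.97. Signal near background limits the bounds of undetected probes.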
